A study of Mus musculus with 6 samples.

Results

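The genes described here build and control the mitotic apparatus: the cyclin B and CDK1 kinase with its regulators, the mitotic kinases, the kinetochore and centromere proteins, the spindle checkpoint, condensin and cohesin, and the anaphase-promoting complex. They were chosen by gene symbol, as rows naming 1 gene whose symbol belongs to these families, and 89 of the 12234 single-symbol rows in the authors' deposited table met that rule. Poly(A) RNA was sequenced from neural stem cells of CD-1 mouse embryos at E14.5, bought from a supplier and grown as a monolayer with EGF and bFGF. A lentivirus carried either a scrambled hairpin (2 libraries), Sox4 shRNA 1 (2 libraries) or Sox4 shRNA 2 (2 libraries), and all cells, controls included, were selected with puromycin at 0.5 µg/mL. The 2 libraries of each hairpin came from different passages, and nothing states that these were separate isolates of cells, so the p-values measure the spread between libraries, which may be technical.

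The only values analysed are the authors' Cuffdiff comparison of a first with a second condition. Its header does not say which hairpin stood in which condition, nor whether both Sox4 hairpins were pooled, and no condition was assigned from the values. Every fold below is therefore the second over the first condition. Levels carry no unit in the header and are read as FPKM, the per-length unit that Cuffdiff writes. There is 1 level per condition and none per library, so no standard deviation, n or sequencing depth can be given. In place of these, a 95% interval of each log2 fold was computed here from the authors' p, read as the two-sided p of a normal. Called genes are those that carry the authors' own flag of significance, which was set up to a q of 0.0494.

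Mitosis is driven by CDK1 bound to cyclin B, which sets off chromosome condensation and spindle assembly. Kinetochores, built on centromeric chromatin, attach chromosomes to microtubules, and unattached ones keep the spindle checkpoint active, which holds back the anaphase-promoting complex (APC/C). Once released, the APC/C marks securin and cyclin B for destruction, separase cuts cohesin and the sister chromatids part. Many of these genes, though not all, are transcribed mainly in G2 and M phase. In a population of neural stem cells the RNA of those can track how many cells are dividing. No count of dividing cells was analysed here. In bulk RNA, fewer dividing cells and less RNA per dividing cell cannot be told apart.

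Many promoters of such genes hold a CCAAT box, bound by NF-Y, and a cell cycle genes homology region (CHR), bound by the DREAM and B-MYB complexes. RefSeq promoter windows of 300 bases, from 250 before to 50 after the start (GRCm38.p6), were found for 80 of the 89 genes. The letters TTTGAA of the CHR, on either strand, stood in 42.9% of the 91 promoters of these genes and in 17.9% of all 32851 promoters. CCAAT, on either strand, stood in 56.0% and 37.4%, and both motifs together in 30.8% and 6.95%. Matches of the 2 motifs can share an end base, and a match is a description of the sequence, not a bound site. Stretches before the RefSeq start of 5 genes at the core of the process are printed because each holds both motifs, in differing order and spacing, 5′ to 3′ on the strand of the gene, with every CCAAT or ATTGG and every TTTGAA in capitals.
Cdk1, chr10:69352913-69353130, minus strand: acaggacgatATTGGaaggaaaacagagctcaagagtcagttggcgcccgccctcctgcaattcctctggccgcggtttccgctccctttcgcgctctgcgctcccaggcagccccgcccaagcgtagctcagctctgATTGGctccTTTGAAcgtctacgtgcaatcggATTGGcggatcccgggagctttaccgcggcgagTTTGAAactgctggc
Ccnb2, chr9:70421561-70421731, minus strand: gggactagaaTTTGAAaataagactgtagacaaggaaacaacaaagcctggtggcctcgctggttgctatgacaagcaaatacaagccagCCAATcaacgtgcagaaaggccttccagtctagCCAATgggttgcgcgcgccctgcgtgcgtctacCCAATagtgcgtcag
Mki67, chr7:135716462-135716577, minus strand: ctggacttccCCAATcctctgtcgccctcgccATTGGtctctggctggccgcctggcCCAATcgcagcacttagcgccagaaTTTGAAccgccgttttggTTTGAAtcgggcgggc
Cdc20, chr4:118437344-118437406, minus strand: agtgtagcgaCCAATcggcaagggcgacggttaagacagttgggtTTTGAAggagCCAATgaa
Espl1, chr15:102296239-102296281, plus strand: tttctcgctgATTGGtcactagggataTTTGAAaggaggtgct
Positions are counted from the RefSeq start, with -1 the base just before it, and bases after the start were not searched for them. The TTTGAA match nearest the start began at -15 in Cdk1, -18 in Cdc20, -27 in Espl1, -98 in Mki67 and -167 in Ccnb2. Cdk1 and Mki67 held 2 CHR matches each in these stretches. GENCODE places some starts further upstream, so that the 26 bases nearest the RefSeq start in the Cdk1 stretch, 9 in that of Cdc20 and 16 in that of Espl1 lie in an exon of the gene itself. That TTTGAA match lies within these bases in Cdk1 and Espl1, and before them in Cdc20.

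None of the mitotic genes was called. Of 89 members, 0 were called higher and 0 lower in the second condition by the authors' Cuffdiff q, against a background of 5.0% (612) called among all 12234 single-symbol rows (3.16% higher and 1.84% lower). At an unadjusted Cuffdiff p under 0.05 there were 6 members, 4 higher and 2 lower, or 6.74%, where 17.5% of all rows passed (9.96% higher and 7.57% lower). The smallest q among members was 0.179. Folds were split evenly about 0, with 44 members higher in the second condition and a median log2 fold of -0.00035, beside 0.0032 over all rows. The quartiles of the members' log2 folds were -0.16 and 0.11, and those of all rows -0.21 and 0.23. Members were expressed at median levels of 20.8 and 22.7, first condition before second, against 12.4 and 12.7 for all rows. Among rows whose summed level lay between the members' quartiles, 14.9% of 3938 rows and 5 of 45 members passed the unadjusted threshold.

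**Figure D1:**
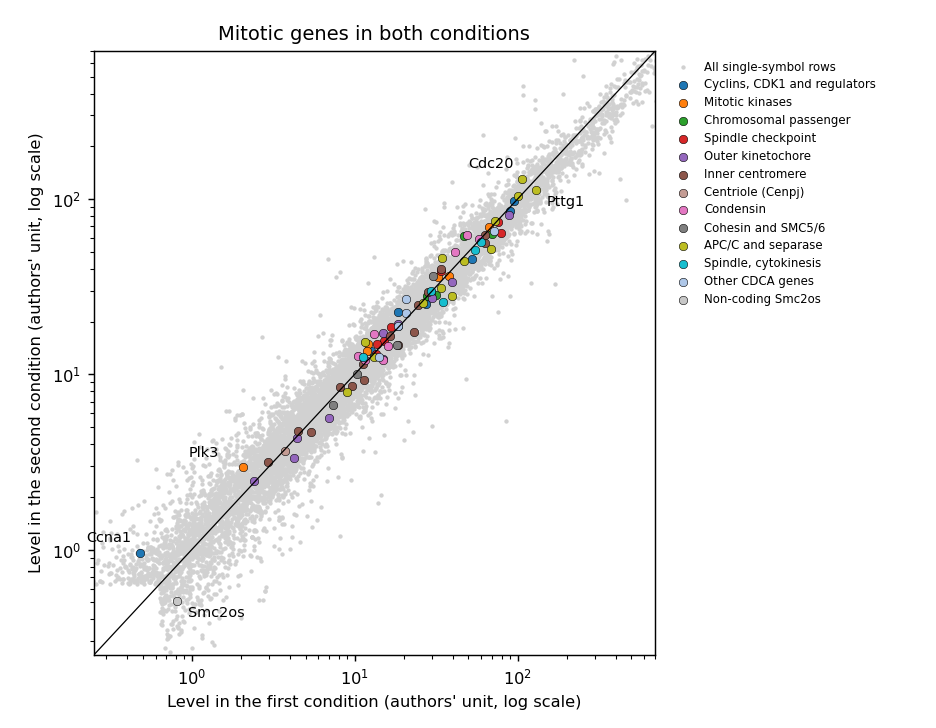
Level of each gene in the first (x) and in the second condition (y), both on log axes in the authors' unit. Coloured points are the 89 mitotic genes by role, grey points all single-symbol rows within the axes, and the line marks equal levels. The mitotic genes lie along the line from Ccna1 and Smc2os, under 1 in both conditions, up to Pttg1, Cdc20 and Anapc5, above 100 in both.

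The precision behind these folds can be stated for 84 members; the other 5 had p-values too near 1 for an interval. The median standard error of a member's log2 fold was 0.20 and the median half-width of its 95% interval was 0.38. Both rest on p read as that of a normal. Taken from the authors' test statistic instead, they would be wider, by 1.64 times in the median row. For 80 of these 84 the whole interval from p lay between log2 folds of -1 and 1, short of a 2-fold change in either direction. The exceptions were Ccna1, Plk3, Smc2os and Ska2. That count holds for the narrower interval only. It was not made with the wider error, under which more members could reach a 2-fold change. The smallest absolute log2 fold that was called in any single-symbol row was 0.55, and 62 members had an absolute log2 fold under 0.25. No row with a smaller fold was called, but this is an observed minimum and not a limit of detection. Some larger folds were not called either, such as the log2 fold of -0.60 of Sox4, with a Cuffdiff q of 0.0543. How small a difference could have been called was not tested.

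**Figure D2:**
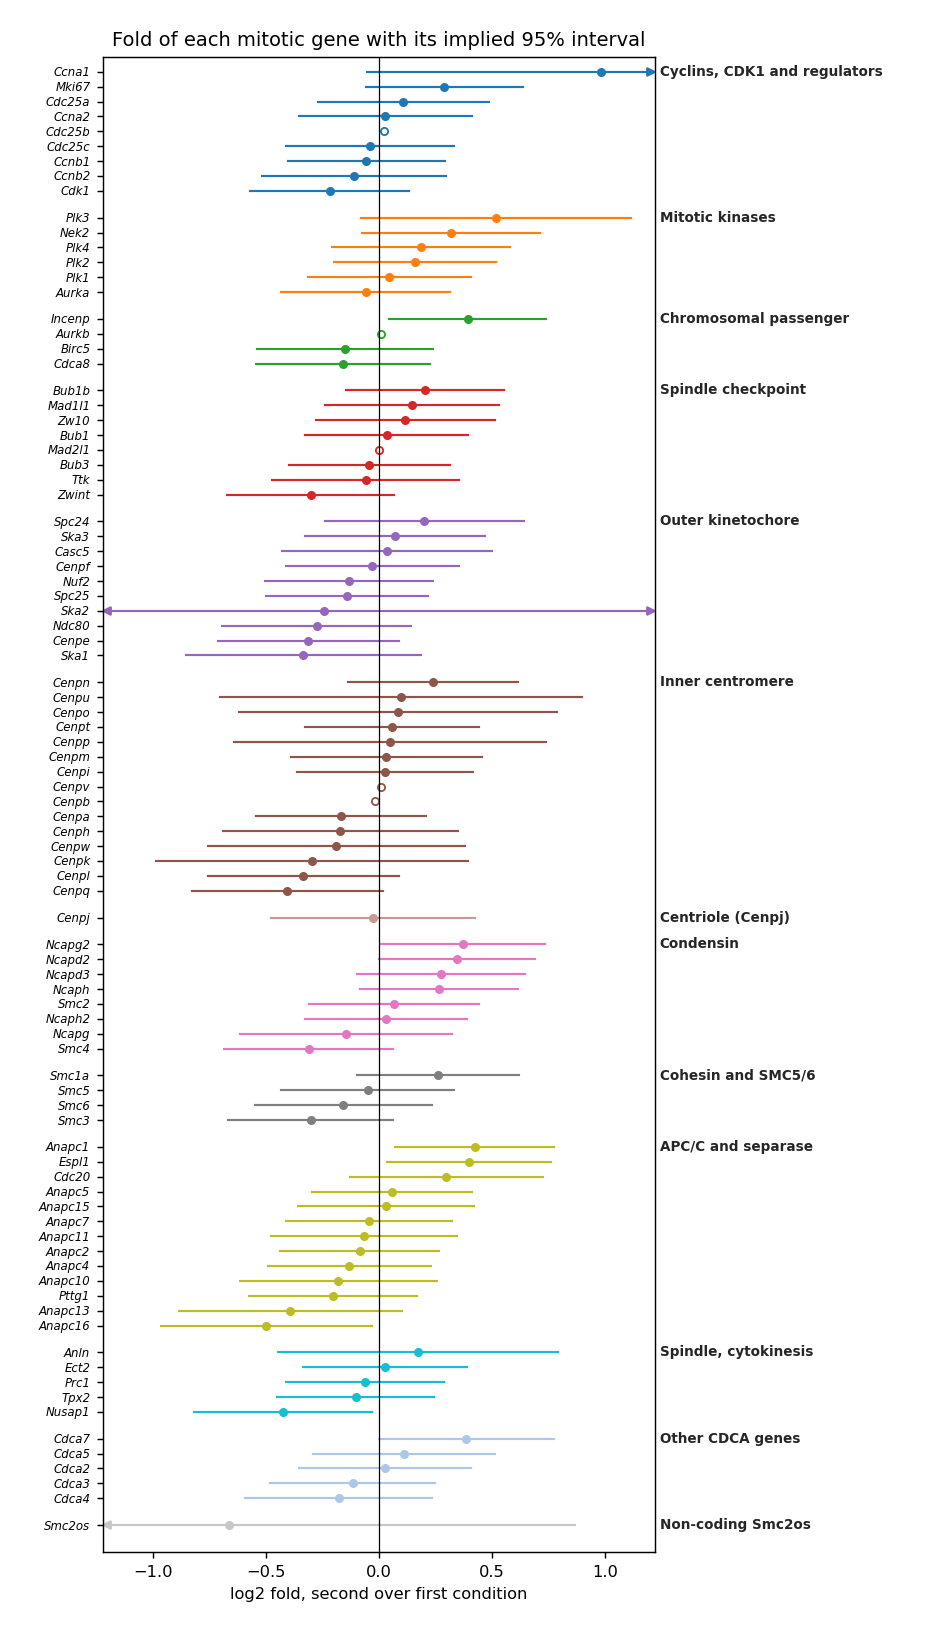
The log2 fold, second over first condition (x), of each of the 89 mitotic genes by role (y), with the 95% interval implied by the authors' p; open points have no interval and arrowheads mark intervals that run past the axis. The intervals of 6 genes, Anapc1, Espl1, Incenp, Ncapg2, Anapc16 and Nusap1, leave out 0 before any adjustment for the number of genes tested. The authors' test statistics of these 6 lay between -1.29 and 1.44. With an error taken from that statistic, none of the 6 intervals would leave out 0.

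In the group of the cyclins, CDK1 and its regulators, in which Mki67 was also counted, 5 of 9 genes were higher, 4 lower and 0 called. Cdk1, the kinase that drives entry into mitosis (chromosome 10, 69335146 to 69352938, minus strand), is listed at 52.6 and 45.3 in the authors' deposited table, first condition before second. The log2 fold of Cdk1 was -0.22, with an interval from -0.57 to 0.13 and a Cuffdiff q of 0.602. Its partner cyclins lay closer to equality. Ccnb1, cyclin B1, stood at 89.4 and 86.0 and Ccnb2, cyclin B2, at 27.3 and 25.2 in the authors' deposited table. Ccna2, the cyclin A of dividing somatic cells, stood at 95.8 and 97.6 in the authors' deposited table, the highest summed level of this group. Exons of Ccna2 overlap those of Exosc9 on the other strand, and without strand in the counting the reads of such a pair are mixed.

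Ccna1, the cyclin A of the germ line, was listed at 0.485 and 0.958 in the authors' deposited table, and its log2 fold of 0.98 was the highest of all members. Its interval ran from -0.05 to 2.02 and its q was 0.342, so it was not called. For scale, 0.636 is the smallest level that any single-symbol row reached in its higher condition. The phosphatases that activate CDK1 differed little between the conditions: Cdc25a had a log2 fold of 0.11, Cdc25b of 0.02 and Cdc25c of -0.04. Mki67, the proliferation antigen that coats mitotic chromosomes, stood at 18.6 and 22.7 in the authors' deposited table. The log2 fold of Mki67 was 0.29 with an interval from -0.06 to 0.63, and its Cuffdiff q was 0.433.

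Of the 6 genes of the Polo, Aurora A and NEK2 kinases, 5 were higher, 1 lower and 0 called, with a median log2 fold of 0.17. Plk1, which acts from centrosome maturation to cytokinesis, stood at 67.3 and 69.4 in the authors' deposited table, the highest level of the group. Aurka, the spindle pole kinase Aurora A, stood at 37.7 and 36.2 in the authors' deposited table and was the 1 gene of these 6 on the lower side. Nek2, a centrosome kinase, had a log2 fold of 0.32 and Plk4, the kinase of centriole duplication, one of 0.18. Plk2 and Plk3 belong to the same family but act mainly in stress responses and in neurons. Plk2 stood at 32.4 and 36.1 in the authors' deposited table. Plk3 is listed at 2.06 and 2.95 in the authors' deposited table. The log2 fold of Plk3 was 0.52, with an interval from -0.08 to 1.11 and a Cuffdiff q of 0.405. Exons of Plk1 overlap Gm44985 and those of Plk3 overlap Tctex1d4, each on the other strand.

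The chromosomal passenger complex corrects faulty attachments and later directs cytokinesis. Its kinase, Aurkb, stood at 27.7 and 27.8 in the authors' deposited table. Incenp, the scaffold that activates Aurora B (chromosome 19, 9872296 to 9899551, minus strand), stood at 46.8 and 61.4 in the authors' deposited table. That is a log2 fold of 0.39 with an interval from 0.04 to 0.74, an unadjusted p of 0.0276 and a Cuffdiff q of 0.226. Birc5 (survivin), a targeting subunit, stood at 69.9 and 63.0 in the authors' deposited table. It and Cdca8 (borealin) lay on the other side, with log2 folds of -0.15 and -0.16. The 4 subunits therefore did not lean in 1 direction, and 0 of 4 were called.

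Of 8 spindle checkpoint genes, 4 were higher, 4 lower, 0 were called and 0 had an unadjusted p under 0.05. Mad2l1, which encodes the MAD2 protein that captures CDC20, had the same level of 29.52 in both conditions of the authors' deposited table, the closest match of any member, with an unadjusted p of 0.999. Bub1 stood at 15.1 and 15.5 and its relative Bub1b, the checkpoint protein BUBR1, at 34.0 and 39.1 in the authors' deposited table. Bub3, which brings both to the kinetochore, stood at 76.2 and 74.0 in the authors' deposited table. Ttk, the kinase MPS1 that starts the signal, had a log2 fold of -0.06, and Mad1l1, the platform for MAD2, one of 0.14. Zw10, which recruits dynein, had a log2 fold of 0.12. Zwint, which links it to the outer kinetochore, had the lowest fold of this group: it stood at 79.1 and 64.2 in the authors' deposited table, giving a log2 fold of -0.30 with an interval from -0.67 to 0.07.

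The outer kinetochore, which grips microtubules, had 3 genes higher, 7 lower and 0 called, and a median log2 fold of -0.14. The 4 subunits of the NDC80 complex had the same order of level in both conditions. Spc25 was highest at 89.2 and 80.8, and Nuf2 followed at 29.9 and 27.3 in the authors' deposited table. Spc24 at 14.95 and 17.2, and Ndc80 at 14.88 and 12.3 in the authors' deposited table, were nearly equal in the first condition. Cenpe, a kinesin that moves chromosomes to the spindle equator, had a log2 fold of -0.31, and the large coiled-coil protein gene Cenpf one of -0.03. Casc5, the older name of Knl1, the scaffold for BUB1, was the least abundant of the group at 2.42 and 2.48 in the authors' deposited table. Of the SKA complex, which follows shrinking microtubules, Ska1 stood at 4.23 and 3.35 in the authors' deposited table, and the log2 folds were -0.34 for Ska1, -0.24 for Ska2 and 0.07 for Ska3. The interval of Ska2, from -3.62 to 3.14, was the widest of all members although its level was 39.8 and 33.6 in the authors' deposited table. Exons of Ska2 overlap Gm11491 on the other strand.

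Centromere and inner kinetochore proteins, labelled inner centromere in the figures, mark where the kinetochore forms. Of 15 genes, 8 were higher, 7 lower, 0 were called and 0 had an unadjusted p under 0.05, with a median log2 fold of 0.0068. Cenpa, the centromeric histone H3 variant, stood at 63.1 and 56.1 and Cenpb, which binds satellite DNA, at 63.1 and 62.4 in the authors' deposited table. The other genes of the group were less abundant, from Cenpu at 2.94 and 3.15 up to Cenpn at 34.0 and 40.1 in the authors' deposited table. Cenpn, which reads CENP-A nucleosomes, had the highest fold of the group at 0.24 on the log2 scale. Cenpq had the lowest: it stood at 23.1 and 17.4 in the authors' deposited table, giving a log2 fold of -0.41 with an interval from -0.83 to 0.02. Cenpl and Cenpk followed with log2 folds of -0.33 and -0.30. Exons of Cenpq overlap Mut and those of Cenpk overlap Ppwd1 on the other strand. Cenpj shares the name but encodes a centriole protein, and it stood at 3.72 and 3.65 in the authors' deposited table.

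Condensin folds mitotic chromosomes. Of its 8 genes, 6 were higher, 2 lower and 0 called, with a median log2 fold of 0.17. Both complexes share the ATPase subunits Smc2 and Smc4. Smc2 stood at 11.6 and 12.2 and Smc4 at 14.97 and 12.1 in the authors' deposited table, log2 folds of 0.07 and -0.31. In condensin I, Ncapd2 stood at 49.0 and 62.2 and Ncaph at 41.2 and 49.6 in the authors' deposited table, while Ncapg stood lower in the second condition, at 16.1 and 14.6 in the authors' deposited table. Ncapd2 had a log2 fold of 0.35 with an interval from -0.00038 to 0.69 and a Cuffdiff q of 0.308. Its exons overlap Scarna10 and Gm28967 on the same strand. In condensin II, Ncapg2 (chromosome 12, 116405402 to 116463731) stood at 13.2 and 17.0 in the authors' deposited table, giving a log2 fold of 0.37 with an interval from 0.01 to 0.73, an unadjusted p of 0.0453 and a Cuffdiff q of 0.294. Ncapd3 had a log2 fold of 0.27 and Ncaph2 one of 0.03. The higher folds thus belonged to non-SMC subunits of both complexes, but each missed the authors' threshold.

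Of the cohesin ring, which holds sister chromatids together, Smc1a stood at 30.4 and 36.5 and Smc3 at 18.2 and 14.8 in the authors' deposited table. These partners lay on opposite sides, with log2 folds of 0.26 and -0.30, and both intervals span 0. Smc5 and Smc6, the core of a related complex that acts in DNA repair, had log2 folds of -0.05 and -0.16. Smc2os is a non-coding RNA from the strand opposite to Smc2 that meets the symbol rule but encodes no protein. It was listed at 0.810 and 0.511 in the authors' deposited table, the lowest summed level of all members, with an interval from -2.20 to 0.87. Smc2os and Ccna1 were the 2 members under a level of 1 in both conditions, and the other 87 reached it.

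Of 13 genes of the APC/C and the separase module, 5 were higher, 8 lower and 0 called, with a median log2 fold of -0.07. An unadjusted p under 0.05 was reached by 3 of the 13 (23.1%, beside 17.5% of all rows), 2 higher and 1 lower. Anapc1, the largest scaffold subunit (chromosome 2, 128610104 to 128687391, minus strand), stood at 34.5 and 46.3 in the authors' deposited table, giving a log2 fold of 0.42 with an interval from 0.07 to 0.77. Its unadjusted p of 0.018 and Cuffdiff q of 0.179 were the lowest of all members. Anapc16, a small subunit (chromosome 10, 59987409 to 60003135, minus strand), stood at 39.6 and 28.0 in the authors' deposited table. The difference, a log2 fold of -0.50, had an interval from -0.96 to -0.03, an unadjusted p of 0.0358 and a Cuffdiff q of 0.259. Anapc13, another small subunit, stood at 68.3 and 52.0 in the authors' deposited table and had a log2 fold of -0.39 with an interval from -0.88 to 0.10, and its exons overlap Cep63 on the other strand. The catalytic cullin subunit Anapc2 and its RING partner Anapc11 had log2 folds of -0.08 and -0.07. Anapc4, Anapc5, Anapc7, Anapc10 and Anapc15 had log2 folds between -0.18 and 0.06.

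Pttg1, which encodes securin, the inhibitor of separase, had the highest summed level of all 89 members, 130 and 113 in the first and second condition of the authors' deposited table, with a log2 fold of -0.20. Cdc20, the activator of the APC/C that the checkpoint restrains, came next at 107 and 131 in the authors' deposited table, giving a log2 fold of 0.30 with an interval from -0.13 to 0.72. Exons of Cdc20 overlap Elovl1 on the other strand. Espl1, which encodes separase itself (chromosome 15, 102296266 to 102324357), stood at 11.6 and 15.3 in the authors' deposited table. The log2 fold of Espl1 was 0.40 with an interval from 0.03 to 0.76, an unadjusted p of 0.0319 and a Cuffdiff q of 0.244.

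Nusap1, a microtubule bundling protein of the spindle (chromosome 2, 119618298 to 119651244), stood at 34.7 and 25.8 in the authors' deposited table. The difference, a log2 fold of -0.43, had an interval from -0.82 to -0.03, an unadjusted p of 0.0337 and a Cuffdiff q of 0.252. Its exons overlap Oip5 on the other strand. The other spindle and cytokinesis genes were closer to equality. Prc1, which bundles the central spindle, stood at 59.3 and 56.8 and Tpx2, which activates Aurora A, at 54.8 and 51.0 in the authors' deposited table. Ect2 and Anln, which set up and anchor the contractile ring, had log2 folds of 0.02 and 0.17. Among the remaining CDCA genes, Cdca3, which promotes mitotic entry, was the most abundant at 71.5 and 66.0 in the authors' deposited table. Cdca5, the cohesin protector sororin, had a log2 fold of 0.11, Cdca2 of 0.03 and Cdca4 of -0.18. Cdca7, a partner of a chromatin remodeller, stood at 20.6 and 27.0 in the authors' deposited table, giving a log2 fold of 0.39 with an interval from -0.0021 to 0.77.

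Other mitotic genes lay outside the symbol rule. For scale, 5.0% of all single-symbol rows were called, 3.16% higher and 1.84% lower, and 17.5% had an unadjusted Cuffdiff p under 0.05. Of 12 mitotic kinesin genes, 4 had a positive fold, 0 were called and the median log2 fold was -0.06. Of 64 other mitotic genes with a row, from a list of 70 symbols that holds older and newer names, 35 had a positive fold, 2 were called higher and 0 lower, and the median was 0.02. The 2 called were Cit, the citron kinase of cytokinesis, and Mybl2, the B-MYB factor that binds CHR promoters. In the authors' deposited table Cit went from 6.30 to 10.2 and Mybl2 from 12.7 to 19.8. Their Cuffdiff q-values were 0.0174 and 0.0309. Genes of neighbouring cell cycle steps are set beside these without a test of the difference. Of 43 replication genes of S phase, 39 had a positive fold, 6 were called higher and 0 lower, and 16 had an unadjusted p under 0.05. Their median log2 fold was 0.26. Among 25 genes of G1 cyclins, their kinases, CDK inhibitors and E2F or RB factors, 12 had a positive and 13 a negative fold. Their median log2 fold was -0.07, and 1 was called higher and 0 lower. An unadjusted p under 0.05 was reached by 5 of them, 4 higher and 1 lower. The authors' deposited table lists the called gene, E2f8, at 9.46 and 14.8.

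**Figure D3:**
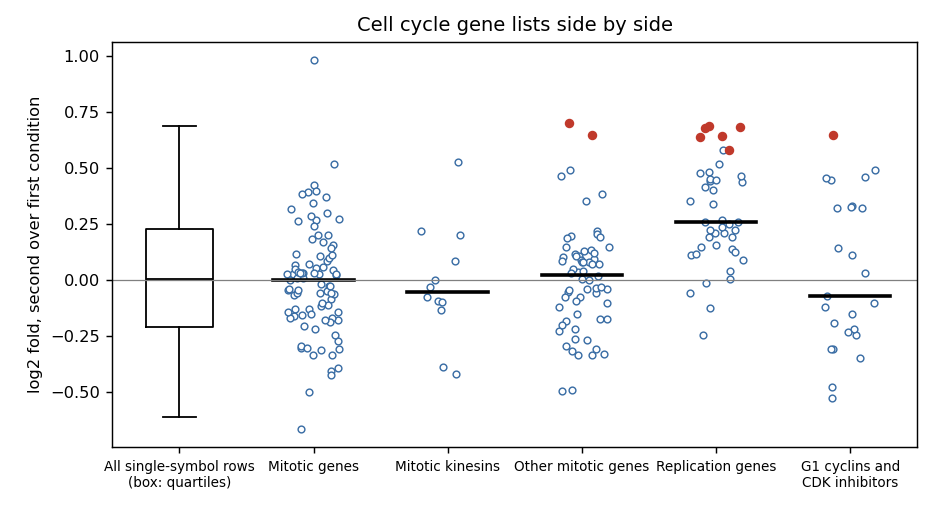
The log2 fold, second over first condition (y), of the 89 mitotic genes and of 4 other cell cycle lists (x), 1 point per gene, filled red where the authors called it, with a bar at the median. The box shows the quartiles and median of all single-symbol rows and its whiskers the 5th and 95th percentiles. The mitotic genes centre on 0 with 0 called, and the replication genes centre on 0.26 with 6 called.

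Members with both promoter motifs were compared with the rest by description only. The 25 members whose promoters held both CCAAT and TTTGAA, among them Cdk1, Plk1, Aurka, Bub1b, Cenpa and Prc1, had a median log2 fold of -0.06, with 9 higher. The 55 members with a promoter but not both motifs had a median of 0.03, with 30 higher. In each of these 2 groups 0 were called.

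Transcript composition moved with the members' folds. Across the 87 members at a level of 1 or more, the log2 fold had a Pearson r of 0.38 and a Spearman rho of 0.39 with the GC content of the longest transcript. Over the 11571 other rows at that level r was 0.12 and rho 0.16. Over the 43 replication genes alone r was 0.54 and rho 0.51, so the trend was not particular to the mitotic genes. All points come from the same libraries and comparison, and genes are not independent replicates, so these are descriptions. Of the 29 members at or under 44.1% GC, 8 had a positive fold and the median log2 fold was -0.15. Nusap1, Cenpq, Cenpl, Cenpe, Smc4, Smc3 and Zwint lie there with negative folds, and Plk4, Smc2, Bub1 and Ect2 with positive ones. Of the other rows at or under that GC content, 36.7% had a positive fold, with a median of -0.10. Of the 29 members above 50.01% GC, 20 had a positive fold and the median was 0.05. Incenp, Espl1, Ncapd2, Cdc20 and Plk3 lie there with positive folds, and Anapc13, Cdca4, Cdca8 and Anapc2 with negative ones. Among the other rows above it, 55.7% had a positive fold, also with a median of 0.05. The replication genes were mostly higher in each GC range, with 3 of 3, 19 of 22 and 17 of 18 positive. The part of GC content in these folds was not tested.

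**Figure D4:**
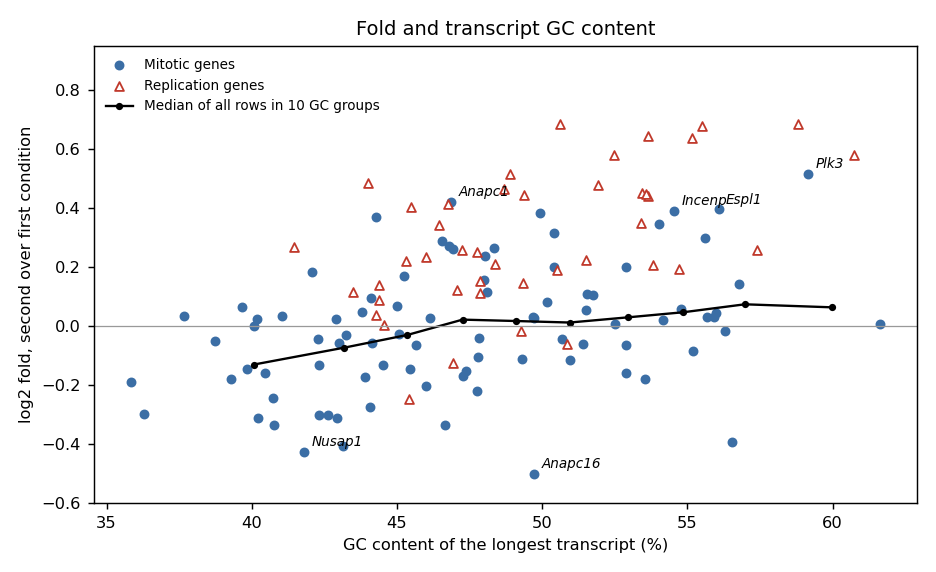
The log2 fold, second over first condition (y), against the GC content of the longest transcript in percent (x), for the mitotic genes at a level of 1 or more (filled circles) and replication genes (open triangles). The line joins the medians of all such rows in 10 GC groups, and the mitotic genes under 44.1% GC lie mostly below 0.

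Transcript length moved with the folds of the whole table. Over the 11571 other rows the Spearman rho of log2 fold with length was 0.32, and over the 87 members it was 0.15. Over the 43 replication genes alone it was 0.53. Of the 29 longest members, above 3680 nt, 13 had a positive fold and the median was -0.02. Of the other rows above that length, 64.8% had a positive fold, with a median of 0.11. The long transcripts Cenpe (7910 nt), Cenpf (11130 nt) and Mad2l1 (7557 nt) had log2 folds at or under 0. Those of Mki67 (10061 nt), Anapc1 (8942 nt) and Casc5 (7800 nt) were above it. The difference between members and other rows was not tested.

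The authors' deposited table lists Sox4, the targeted gene, at 127 and 83.9, with a Cuffdiff q of 0.0543, and was not called. Neural stem cell markers were present: 11 of 12 had a row, with levels of 59.7 and 51.1 for Sox2, 98.1 and 170 for Nes and 709 and 775 for Vim in the authors' deposited table. Of these 11, 2 were called higher and 2 lower, and their summed level was 6211 and 4010, most of it from Fabp7 alone. A positive fold was found for 6 and a negative one for 5, with a median log2 fold of 0.03. The 2 called lower were Fabp7, at 4620 and 2286, and Hes5, at 37.3 and 14.4 in the authors' deposited table. The part of these markers in the levels of mitotic genes was not tested. Of the 7 astrocyte markers 6 had a negative fold and 1 a positive one, and 4 were called lower and 1 higher. All 7 had an unadjusted Cuffdiff p under 0.05, beside 17.5% of all rows. Their summed level was 243 and 136, and their part in the levels of mitotic genes was not tested. Of 8 neuron markers 6 had a row, 3 with a positive and 3 with a negative fold, and summed levels of 138 and 139. Most of that sum came from Map2, at 122 and 127 in the authors' deposited table. Of these 6, 2 had an unadjusted Cuffdiff p under 0.05, both lower, and 1 was called lower. Of 8 oligodendrocyte lineage markers 6 had a row, 5 with a negative fold, 2 of them called lower, and summed levels of 1417 and 1217. Of 7 fibroblast and mesenchymal markers 1 had a row, Twist1, which the authors' deposited table lists lower, at 2.73 and 0.515, and calls. Markers of microglia and blood (6) and of endothelium (4) had 0 rows among those analysed here.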

How the data were processed

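Per the submitters' processing notes, reads were processed with TopHat2 2.0.9, Cufflinks 2.2.1 and Cuffdiff, with mm10 as the genome build; annotation and strand use: not given in the sources used here. Per the file headers, the authors' deposited table holds 2 levels per gene, read here as FPKM, a log2 fold, a score (the test statistic), p-value and q-value columns and a flag. It has 12316 gene rows, 82 of which name several genes. No test was refitted. The plan to derive a standard error from the test statistic was dropped. The reason was that the normal quantile of p was 1.64 times the statistic in the median row. The interval from p was chosen after seeing this, for p under 0.95, and is narrower by that ratio in the median row. Depth per library is unknown. Lengths, GC content and exon overlaps are from GENCODE M21 (GRCm38, as mm10), longest coding transcript; 88 members matched as written and 1 by an older name. Promoters are from RefSeq (GRCm38.p6). The steps ran in Python 3.11.15 with scipy 1.17.1, pandas 2.3.3, matplotlib 3.10.9 and numpy 2.4.6, and were tested on simulated data. The simulated p was exactly that of a normal, so these tests could not check that reading of the authors' p. The members, role lists and marker lists were chosen with earlier results of these data known. Genes named with values are those with an unadjusted p under 0.05, the 3 highest and 3 lowest levels, the 5 highest and 5 lowest folds at a level of 1 or more, the 2 most abundant of each role and core textbook genes; others stand in the account of their role. Alternatives were a stricter q, level minimums of 1 and 5, recomputed q, a fold minimum, pseudocounts, centring and length, level or GC groups.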

Additional observations from a re-analysis of the deposited data

How the results depend on the processing

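Of 26 alternative values, 26 kept their side or stayed within the spread of the main value, and 0 did not. The counts of members called, 0 higher and 0 lower, stayed at 0 at a q of 0.01, with a level of at least 1 or 5, with a minimum absolute log2 fold of 1 and without the longest 10% of transcripts, none of which can add a call. They also stayed at 0 with q recomputed over rows at a level of 1 or more, which could; the smallest recomputed q was 0.159. The median log2 fold of members lay between -0.0165 and 0.0033 over its alternatives, inside its binomial interval from -0.0595 to 0.0325. That interval treats genes as independent draws, although all folds come from 1 comparison of the same libraries. It describes the spread over genes only and gives no error between libraries. The GC groups and the median without Smc2os were added after seeing the data. No paired analysis was possible because each condition has 1 level and no values per library. Leaving out single replicates was not run on the same ground. Whether both Sox4 hairpins gave like folds cannot be read from 1 comparison.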

Other observations

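A few genes next to the symbol rule had values near those of the strongest members. Foxm1, the transcription factor of the G2 and M programme, stands only in a row it shares with 4933413G19Rik, at 39.6 and 53.9 in the authors' deposited table, with a log2 fold of 0.45, an unadjusted p of 0.0111 and a Cuffdiff q of 0.135. Reads of these 2 genes cannot be told apart in that row. Cenpc1, the centromere protein that links to the outer kinetochore, stood at 13.1 and 9.90 in the authors' deposited table, with an unadjusted p of 0.0495. Smchd1, a chromatin protein related to the SMC family that acts in X inactivation, stood at 9.78 and 13.3 in the authors' deposited table, with an unadjusted p of 0.0157. None of these 3 rows was called by Cuffdiff, their q-values being 0.135, 0.306 and 0.164. These genes were named after their values were seen. Among mitotic genes outside the rule, Cks2, a small CDK1 binding protein, stood at 82.6 and 58.6 in the authors' deposited table, with a Cuffdiff q of 0.172, and the kinesin gene Kif14 at 2.52 and 3.63 in the authors' deposited table, with a q of 0.159.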
